A study of Homo sapiens with 3 samples.

Results

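The 50 genes described here encode the ATP-dependent chromatin remodelers of the SWI/SNF (BAF and PBAF), ISWI, CHD, INO80, SRCAP and EP400 families, with subunits of their complexes and a few related SNF2-type proteins. They were chosen by gene name, by a rule that uses no measured value. Earlier results of these data were known when the list was made. All 50 were found among the 26485 entries of the count table, on 21 chromosomes, with 6 of them on chromosome 12. The study's RNA-seq dataset holds 3 libraries of 1 group, labelled as CAMA1 control. CAMA1 is an established human breast cancer cell line, which the labels describe as oestrogen receptor positive and FGFR1-amplified. The cells were below passage 10 and spent 48 h deprived of estradiol before harvest, and poly-A RNA was sequenced with a strand-specific kit. No treated group was analysed here, so the comparisons are those between genes within a library and those between the 3 libraries. The submitters call the 3 biological replicates. All come from 1 cell line and nothing says how the cultures were separated, so the SDs below (n = 3 throughout) measure the spread between these libraries, which may be technical.

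Chromatin remodelers use the energy of ATP to slide, eject, space or exchange nucleosomes. SWI/SNF complexes open chromatin at enhancers and promoters, ISWI complexes space nucleosomes evenly, CHD proteins include the motor of the NuRD deacetylase complex, and INO80, SRCAP and EP400 complexes handle the histone variant H2A.Z. Each complex has slots that can be filled by any of several paralogs, and which paralog fills a slot depends on the cell type. Subunits of SWI/SNF, ARID1A in particular, are often mutated in cancers, breast cancer included.

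The libraries held 26473939, 26592335 and 30745412 counts assigned to genes, of which the 50 genes took 0.596%, 0.594% and 0.587%. Luminal epithelial markers were present (10 of 10 detected, median 919 TPM), where detected means at least 10 counts in each library. Of the markers of other cells, 3 of 4 basal epithelial (median 1.08 TPM, KRT17 highest at 8.25 TPM), 6 of 11 neuronal, 1 of 6 fibroblast, 1 of 4 immune, 0 of 5 muscle and 0 of 3 endothelial markers were detected. A TPM value is the count divided by the gene's exon length and scaled to the same total in each library, so that levels of different genes can be compared. Replicates 1 and 2 were closest, with a median absolute log2 difference over genes of 0.0769, against 0.137 between replicates 1 and 3 and 0.12 between replicates 2 and 3. The 11 early response genes were all lowest in replicate 1, with summed levels of 335, 1376 and 1261 TPM in replicates 1, 2 and 3. On TPM the 11 S-phase genes were all lowest in replicate 3.

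Nearly the whole remodeler set was transcribed in these cells. Of the 50 genes, 49 were detected, against 67.3% of 18985 protein-coding genes. A mean of at least 10 TPM was reached by 43 of them (background 47.8%), and a mean of at least 100 TPM by 11 (background 10.1%). Their median was 44.2 TPM, beside 8.07 TPM over protein-coding genes and 1.50 TPM over all entries. The 7 genes under 10 TPM were ACTL6B, DPF1, DPF3, SMARCA1, BAZ2B, CHD5 and CHD7. Each of these 7 has a paralog among the 50 that stood well above it, and of the highest such paralogs the lowest was SMARCA5, the paralog of SMARCA1, at 45.8 TPM. The list was built largely from sets of paralogs, so a higher paralog of a low gene was likely beforehand. The medians by family were 68.3 TPM for 20 SWI/SNF genes, 45.8 TPM for 7 ISWI genes and 44.2 TPM for 10 CHD genes. They were 73.2 TPM for the 3 MTA genes, 41.0 TPM for 5 genes of INO80, SRCAP and EP400, and 22.6 TPM for 5 others. The lengths deposited for DAXX and SMARCB1 include alternate copies of their loci. With exon length on the main chromosome only, the medians were 33.6 TPM for the 5 others and 75.6 TPM for SWI/SNF. The remaining families then stood at 39.9 to 71.1 TPM. The counts at 10 and 100 TPM also depend on the length used. On main-chromosome length HELLS moved from 10.2 to 9.95 TPM and SS18 from 100.4 to 97.5 TPM. SMARCB1 and DAXX then passed 100 TPM, at 124 and 110 TPM.

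**Figure D1:**
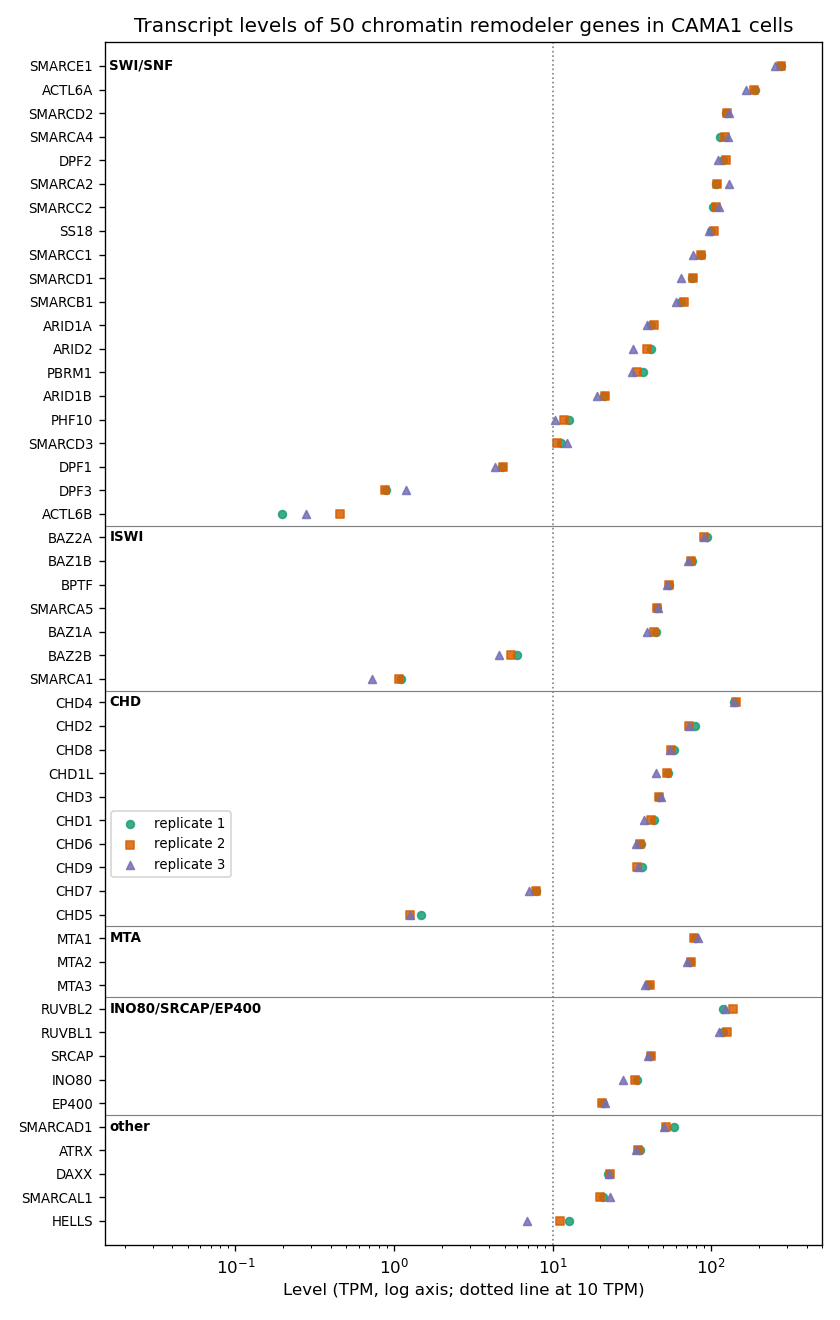
Levels of the 50 remodeler genes (TPM, log axis) by family, 1 marker per library, with a dotted line at 10 TPM. In most rows the 3 markers nearly coincide, and 7 genes lie left of the line, from ACTL6B at 0.311 TPM to CHD7 at 7.59 TPM.

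The promoters of genes at both ends of this range were compared by their content of CG dinucleotides, the sequence that DNA methyltransferases modify and that is dense in the promoters of broadly used genes. Promoter windows of 300 bases (250 before to 50 after the RefSeq gene start, GRCh38.p14) could be matched for 39 of the 50 genes. They held a median of 28 CG dinucleotides, from 3 in CHD2 to 55 in SMARCA4. The median was 22 over 14332 protein-coding genes, 26 over the detected ones among them and 7 over the others. At least 10 CG dinucleotides were found in 36 of 39 windows (92.3%), against 73.8% of all protein-coding windows and 87.2% of those of detected genes. CG is its own reverse complement, so the count is the same on both strands. The exceptions were CHD2 with 3, ARID1B with 5 and BAZ2A with 7, all 3 of which were transcribed well above the protein-coding median. For some genes the RefSeq start differs from the start in the count table. The latter is the outermost exon base listed for the gene, and which start these cells used was not tested. The ARID1B window (chr6:156775776-156776075) lies wholly before its counted start (156777930), so its low count may not describe the promoter used here. The windows of RUVBL1, CHD3, CHD4, PBRM1, SMARCD2, CHD1, PHF10 and MTA3 also miss the counted start, while those of CHD2 and BAZ2A hold it. CHD1, PHF10 and MTA3 carried 44, 47 and 49 CG dinucleotides, so such windows were not limited to low counts. The 5 matched genes under 10 TPM carried 17 to 36 (median 22). Of these, SMARCA1 (0.968 TPM), DPF3 (0.989 TPM) and ACTL6B (0.311 TPM) carried 17, 18 and 22. These counts were at or below the protein-coding median of 22 and above the median of 7 over genes not detected. DPF1 (4.67 TPM) and BAZ2B (5.35 TPM) carried 36 and 31. The bases before the gene start are shown for the genes with the most and the fewest CG dinucleotides, SMARCA4 (chr19:10960780-10960921, plus strand) and CHD2 (chr15:92900074-92900320, plus strand), and for the low genes SMARCA1 (chrX:129523506-129523740, minus strand) and DPF3 (chr14:72894117-72894351, minus strand). They are written 5′ to 3′ on the gene's strand, in lower case, with each CG in capitals, and stop before the start of the gene in both RefSeq and the count table.
SMARCA4: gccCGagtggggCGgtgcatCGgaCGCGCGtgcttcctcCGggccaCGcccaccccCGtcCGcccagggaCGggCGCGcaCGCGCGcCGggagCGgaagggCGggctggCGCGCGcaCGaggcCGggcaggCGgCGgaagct
CHD2: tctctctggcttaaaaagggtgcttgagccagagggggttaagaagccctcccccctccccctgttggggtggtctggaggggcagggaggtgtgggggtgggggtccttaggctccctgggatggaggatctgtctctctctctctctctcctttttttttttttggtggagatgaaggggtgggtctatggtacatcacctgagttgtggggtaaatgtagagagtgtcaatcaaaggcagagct
SMARCA1: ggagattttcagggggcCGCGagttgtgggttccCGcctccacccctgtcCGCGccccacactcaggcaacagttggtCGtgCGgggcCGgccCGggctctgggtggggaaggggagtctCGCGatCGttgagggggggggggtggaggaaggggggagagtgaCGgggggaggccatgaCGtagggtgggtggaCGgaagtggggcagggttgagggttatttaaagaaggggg
DPF3: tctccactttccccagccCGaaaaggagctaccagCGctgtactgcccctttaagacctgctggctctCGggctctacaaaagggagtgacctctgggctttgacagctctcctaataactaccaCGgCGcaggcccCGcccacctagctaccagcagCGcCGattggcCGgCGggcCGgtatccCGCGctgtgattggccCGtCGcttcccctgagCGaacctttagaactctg
The stretch before SMARCA4, at 121 TPM, holds 26 CG dinucleotides in 142 bases, and that before CHD2, at 74.7 TPM, holds 0 in 247 bases. The stretches before SMARCA1, at 0.968 TPM, and DPF3, at 0.989 TPM, hold 15 and 16 in 235 bases each.

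The SWI/SNF motor subunits are SMARCA4 (BRG1) and SMARCA2 (BRM), of which each complex contains a single copy of either. SMARCA4 (chr19:10960922-11062282, hg38) had 6658, 7121 and 8817 counts, or 114, 121 and 128 TPM in replicates 1, 2 and 3 (121 ± 6.71 TPM). SMARCA2 (chr9:2015219-2193623) had 7329, 7524 and 10483 counts, or 107, 109 and 129.7 TPM (116 ± 12.3 TPM). Both motors were therefore highest in replicate 3, and SMARCA2 was higher than SMARCA4 there and lower in replicates 1 and 2. SMARCA4 made up 51.3 ± 1.50% of the summed TPM of the pair. Their log2 ratio was 0.07 ± 0.09 and changed sign between libraries, so the order of the motors was not resolved beyond the spread.

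The core that joins the motor to the rest of the complex was led by SMARCE1 (BAF57), a DNA-binding subunit of the HMG type. SMARCE1 (chr17:40627728-40647851) stood at 274, 274 and 254 TPM (267 ± 11.8 TPM), the highest of the 50 genes. The scaffold subunits SMARCC1 and SMARCC2, which dimerise early in assembly, stood at 83.0 ± 4.92 and 108 ± 4.88 TPM. SMARCC2 was the higher in each library, with a SMARCC1 to SMARCC2 log2 ratio of −0.38 ± 0.15. SMARCB1 (chr22:23786963-23834518), the subunit lost in rhabdoid tumours, had 2163, 2299 and 2400 counts and 64.1, 67.6 and 60.0 TPM. Its deposited length of 3406 bases counts its exons on the main chromosome, 1703 bases, and again on an alternate copy of the locus, and with 1703 bases its level was 124 ± 7.45 TPM. SS18, which is fused to SSX genes in synovial sarcoma, stood at 100.4 ± 3.65 TPM, with counts that were not whole numbers.

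Among the SMARCD (BAF60) paralogs, SMARCD2 was highest at 127 ± 3.03 TPM, SMARCD1 followed at 72.7 ± 6.82 TPM, and SMARCD3, the form known from heart and skeletal muscle, stood at 11.4 ± 0.831 TPM. Their shares of the summed TPM were 60.1 ± 2.29%, 34.5 ± 2.75% and 5.43 ± 0.479%. SMARCD3 had 214, 205 and 278 counts, so it was detected well above the limit in every library, while 0 of 5 muscle markers were. SMARCD1 was lowest in replicate 3 (76.0, 77.3 and 64.8 TPM) and SMARCD2 was highest there (124, 126 and 130.0 TPM), so the log2 ratio of SMARCD1 to SMARCD2 was −0.80 ± 0.17.

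The actin-like slot showed the largest contrast between paralogs. ACTL6A (BAF53A), which dividing cells use and which the INO80 and EP400 complexes also contain, had 3669, 3612 and 3779 counts and 190.3, 186 and 165 TPM. ACTL6B (chr7:100643103-100656461), which replaces it when neurons leave the cell cycle, had 3, 7 and 5 counts, with exact 95% Poisson intervals of 0.619 to 8.77, 2.81 to 14.4 and 1.62 to 11.7 counts, which cover counting error only. ACTL6B was the only one of the 50 below the detection limit. ACTL6A made up 99.8 ± 0.0711% of the pair, and the log2 ratio was 9.26 ± 0.62, or 615-fold. With so few counts of ACTL6B the size depended on the pseudocount, and the log2 ratio was 7.12 with 1 TPM added to both genes.

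The PHD-finger slot holds DPF1 (BAF45B), DPF2 (BAF45D) or DPF3 (BAF45C) in BAF and PHF10 (BAF45A) in PBAF. DPF2, the broadly expressed form, had 119, 123 and 111 TPM and made up 87.2 ± 0.469% of the 4. PHF10 stood at 12.7, 11.9 and 10.3 TPM (11.6 ± 1.19 TPM), and 28.8% of its exon bases overlap C6orf120 on the opposite strand. DPF1 had 119, 123 and 128 counts (4.67 ± 0.297 TPM) and DPF3 44, 44 and 70 counts (0.989 ± 0.178 TPM). DPF1 and DPF3, both known from neurons, thus lay 25.3-fold and 120.3-fold below DPF2, and the latter log2 ratio of 6.91 was 5.90 with 1 TPM added to both genes. Of 11 neuronal markers 6 were detected and 1, TUBB3, passed 10 TPM (63.1 ± 3.82 TPM), NEFL and NEFM were at 0 counts in every library, and REST, a repressor of neuronal genes, stood at 41.1 ± 2.02 TPM.

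The subunits that set the class of the complex are the ARID proteins. ARID1A (chr1:26696031-26782110) had 42.0, 43.7 and 39.5 TPM and its BAF paralog ARID1B had 21.0, 21.3 and 18.9 TPM. ARID1A was higher in each library by a log2 ratio of 1.04 ± 0.03, or 2.05-fold, and this was among the steadiest ratios in the set. ARID2, which marks PBAF, had 41.8, 39.3 and 32.2 TPM, with its lowest value in replicate 3. Its PBAF partner PBRM1, a protein of many bromodomains, had 36.9, 34.0 and 31.6 TPM and was lowest in the same library. PBRM1 and ARID2 differed by a log2 ratio of −0.14 ± 0.10 and ARID1A and ARID2 by 0.15 ± 0.14, so these differences were close to the size of the spread. ARID1A, ARID1B and ARID2 took 41.9 ± 1.74%, 20.4 ± 0.429% and 37.7 ± 2.17% of their summed TPM.

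The paralogs of a slot can be added to give a level per slot. The SMARCA4 and SMARCA2 slot summed to 237 ± 18.5 TPM, the SMARCD slot to 211 ± 3.21 TPM, the SMARCC slot to 191 ± 1.86 TPM, the ACTL6 slot to 181 ± 13.3 TPM and the PHD-finger slot to 135 ± 7.28 TPM. The ARID slot was lowest among these, at 99.9 ± 8.02 TPM. This order rests on division by exon length, which is 8466 to 9638 bases for the ARID genes and 1946 for ACTL6A. The slots were not summed without that division. The SMARCC sum varied less between libraries than SMARCC1 or SMARCC2 alone, and SMARCC1 was lowest and SMARCC2 highest in replicate 3. These are transcript levels, and no protein was measured.

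Other BAF subunits were read from a list of 8 genes that are not among the 50. Their median was 24.9 TPM and 7 were detected, with BCL7B at 56.1 ± 1.99 TPM, BRD9, a subunit of the non-canonical BAF complex, at 46.6 ± 2.28 TPM, and SS18L1 at 38.2 ± 1.06 TPM. BRD7, a bromodomain subunit of PBAF on chromosome 16, had 1, 2 and 0 counts. Its neighbours were looked at after this value was seen. ADCY7, NKD1 and SNX20 beside it had at most 2 counts in any library, and PAPD5 had 11, 13 and 24 counts (0.183 ± 0.0608 TPM). On either side of this run, HEATR3 stood at 35.5 ± 0.724 TPM and CNEP1R1 at 29.6 ± 0.434 TPM, and NOD2 and CYLD at 1.93 ± 0.428 and 12.2 ± 0.277 TPM. Farther out, C16orf78 and SALL1 had 0 counts in each library and ZNF423 stood at 0.0850 TPM, so low genes were not limited to the stretch around BRD7. BRD7 shares 10.9% of its windows of 50 bases with transcripts of other loci. DNA copy number was not analysed here, and the cause of the low run was not tested. The other PBAF genes in the set, PBRM1, ARID2 and PHF10, were at 34.2, 37.8 and 11.6 TPM.

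**Figure D2:**
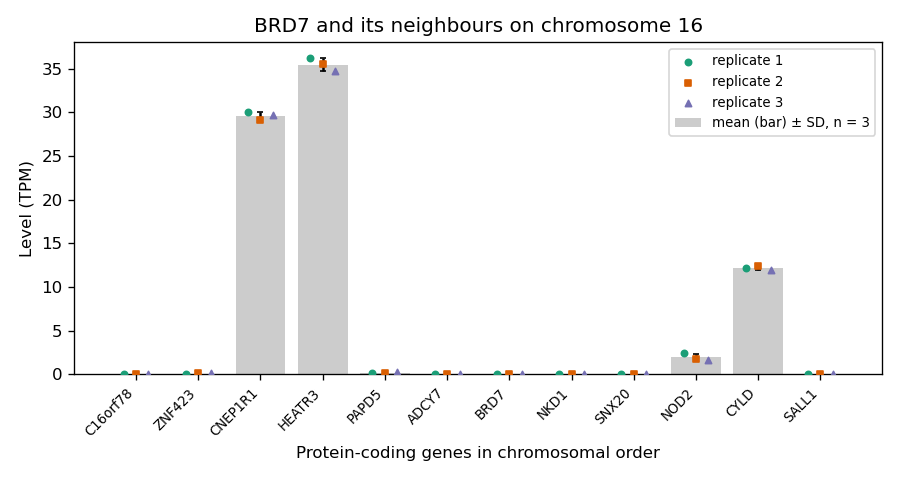
Levels (TPM) of BRD7 and neighbouring protein-coding genes in their order on chromosome 16, with bars for the mean, error bars for the SD and markers for the 3 libraries. BRD7, ADCY7, NKD1 and SNX20 lie at or near 0 between HEATR3 at 35.5 TPM and CYLD at 12.2 TPM, with NOD2 at 1.93 TPM beside CYLD, and C16orf78, ZNF423 and SALL1 farther out are also at or near 0.

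The ISWI motors are SMARCA5 (SNF2H), the broadly used form, and SMARCA1 (SNF2L), the form known from neurons. SMARCA5 had 45.4, 45.7 and 46.2 TPM, the smallest coefficient of variation of TPM among the 49 detected genes at 0.840%. On the TMM-scaled CPM used below for the spread, SMARCA5 had 133, 136 and 141 CPM, a log2 range of 0.084 that was not the smallest. An antisense gene, SMARCA5-AS1, overlaps 7.95% of its exon bases, and some of its counts were fractional. SMARCA1 had 45, 44 and 35 counts and 1.11, 1.07 and 0.726 TPM, lowest in replicate 3. SMARCA5 made up 97.9 ± 0.457% of the pair, and their log2 ratio was 5.59 ± 0.35, or 48.1-fold (4.58 on the log2 scale with 1 TPM added to both). SMARCA4 was higher than SMARCA5 in each library, by a log2 ratio of 1.40 ± 0.07.

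Of the large subunits that direct ISWI motors, 4 stood between 42.6 and 91.4 TPM and BAZ2B at 5.35 TPM. BAZ2A (TIP5), the partner of SMARCA5 in the nucleolar NoRC complex, was highest at 91.4 ± 2.22 TPM. BAZ1B (WSTF), a subunit of the WICH complex, followed at 74.0 ± 2.01 TPM, BPTF, the largest subunit of NURF, at 53.5 ± 0.743 TPM, and BAZ1A (ACF1) at 42.6 ± 2.90 TPM. BAZ2B, the paralog of BAZ2A, had 633, 586 and 580 counts and 5.96, 5.48 and 4.61 TPM, a 17.2-fold difference with a log2 ratio of 4.10 ± 0.17. BAZ1B exceeded BAZ1A by a log2 ratio of 0.80 ± 0.06 and BPTF by 0.47 ± 0.02, and the latter turned to −0.42 on counts scaled for library size (CPM) without division by length. Of 4 further ISWI partners, POLE3 (80.5 ± 12.3 TPM) and CHRAC1 (56.5 TPM), small histone-fold subunits of CHRAC, were highest and CECR2 (2.92 TPM) was lowest.

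Of the CHD proteins, CHD4, the main motor of NuRD, was the highest. CHD4 had 9071, 9401 and 10651 counts and 139.9, 144 and 139 TPM (141 ± 2.76 TPM), the third-highest level of the 50 genes after SMARCE1 and ACTL6A. CHD3 had 46.7, 47.0 and 48.3 TPM, and CHD5, the form known from neurons, had 141, 121 and 143 counts and 1.47, 1.25 and 1.26 TPM. Their shares were 74.3 ± 0.628% for CHD4 and 0.702% for CHD5, with the rest CHD3. CHD4 exceeded CHD3 2.97-fold and CHD5 106-fold, a log2 ratio of 6.73 that was 5.93 with 1 TPM added to both genes. It exceeded SMARCA4 by a log2 ratio of 0.22 ± 0.09.

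CHD1 and CHD2 bind or act at transcribed genes, and CHD2 was the higher at 79.1, 72.1 and 72.8 TPM against 43.4, 41.6 and 38.0 TPM for CHD1. The log2 ratio of CHD1 to CHD2 was −0.87 ± 0.07. Among CHD6 to CHD9, CHD8 was highest at 58.4, 56.2 and 55.2 TPM, and CHD6 and CHD9 both averaged 35.2 TPM. CHD7, the gene mutated in CHARGE syndrome, had 898, 907 and 963 counts and 7.83, 7.85 and 7.08 TPM. CHD8 exceeded CHD7 7.47-fold, and it exceeded CHD6 and CHD9 by a log2 ratio of 0.69 in both cases (SD 0.03 and 0.04). CHD1L (ALC1), a remodeler activated by poly(ADP-ribose), stood at 53.4, 52.4 and 45.2 TPM.

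The MTA proteins hold the deacetylases in NuRD. MTA1 had 78.7, 77.4 and 82.3 TPM, MTA2 73.9, 74.7 and 70.9 TPM and MTA3 39.9, 40.9 and 38.4 TPM. MTA1 and MTA2 differed by a log2 ratio of 0.12 ± 0.09, close to the spread, and MTA3 lay below MTA1 by 0.98, 0.92 and 1.10 in the 3 libraries (log2, SD 0.09) and below MTA2 by 0.88 ± 0.01. The 3 summed to 192 ± 0.787 TPM, beside 189 ± 2.29 TPM for the sum of CHD3, CHD4 and CHD5. The order of MTA3 depended on its length: on counts scaled for library size (CPM) without division by length, the log2 ratios of MTA1 and MTA2 to MTA3 were −0.24 and −0.25. Of 9 further NuRD subunits, all passed 10 TPM, with a median of 62.4 TPM. The histone-binding protein RBBP7 (224 ± 5.40 TPM), the deacetylase HDAC1 (110.4 ± 2.22 TPM) and CDK2AP1 (72.4 ± 6.96 TPM) were highest, and MBD2 was lowest at 28.3 ± 1.49 TPM.

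The motors of the INO80 class were expressed at moderate levels. SRCAP had 41.3, 41.8 and 40.0 TPM, INO80 34.1, 33.2 and 27.9 TPM, and EP400 20.9, 20.5 and 21.3 TPM. SRCAP exceeded INO80 by a log2 ratio of 0.38 ± 0.13 and EP400 by 0.97 ± 0.06. RUVBL1 and RUVBL2, the AAA+ ATPases that form a ring shared by these complexes, stood higher, at 119, 125 and 111 TPM and at 119, 137 and 122 TPM. Their log2 ratio of −0.09 ± 0.08 was about the size of the spread, and it was 0.16 without division by length. Of 11 INO80 partners the median was 30.3 TPM, with YY1 at 92.6 ± 1.76 TPM highest and INO80B at 1.96 ± 0.793 TPM lowest. Of 12 partners of SRCAP and EP400 the median was 46.2 TPM, with MORF4L1 at 357 ± 9.95 TPM highest and ING3 at 18.1 ± 2.29 TPM lowest.

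ATRX and DAXX deposit the histone variant H3.3 at repeats and telomeres. ATRX (chrX:77504878-77786269) had 3930, 3863 and 4449 counts and 35.4, 34.5 and 33.8 TPM. On the TMM-scaled log2 CPM used for the spread, its range over libraries was the smallest of the 49 genes tested, 0.016. DAXX (chr6:33318558-33323016) had 2893, 3012 and 3462 counts and 22.6 ± 0.382 TPM. The length deposited for DAXX, 13079 bases, adds up copies of the gene on alternate sequences of its region, and with the 2615 exon bases on the main chromosome its level was 110.1 ± 1.85 TPM. DAXX thus lay below ATRX on the deposited length and above it on the main-chromosome length. Of the genes for H3.3, H3F3B stood at 363 ± 29.5 TPM. H3F3A had 0 counts in each library, while the entry H3F3AP4, which overlaps it on chromosome 1, had 5307, 5198 and 6403 counts.

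SMARCAD1, a remodeler that acts behind replication forks, had 58.7, 52.2 and 50.5 TPM, and SMARCAL1, an annealing helicase of stalled forks, had 20.9, 19.8 and 22.9 TPM. A chosen list of 9 other SNF2-type ATPases outside the set, not the whole family, had a median of 8.61 TPM. Highest were HLTF at 83.1 ± 3.23 TPM, BTAF1 at 65.2 ± 7.18 TPM and TTF2 at 34.8 ± 5.44 TPM, and ZRANB3 was lowest at 2.48 ± 0.335 TPM.

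Over the 30 ratios between paralogs or partners, 29 had the same sign in all 3 libraries. An exact permutation test that flips signs (two-sided) cannot give a p below 0.25 with 3 libraries, and 0.25 was reached by each of these 29, with a Benjamini-Hochberg adjusted value of 0.259. No ratio could therefore pass a threshold of 0.05 in this design, and the sizes have to be read against their SDs. The mean ratio was over 4-fold in 10 of the 30 and under 1.25-fold in 6.

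**Figure D3:**
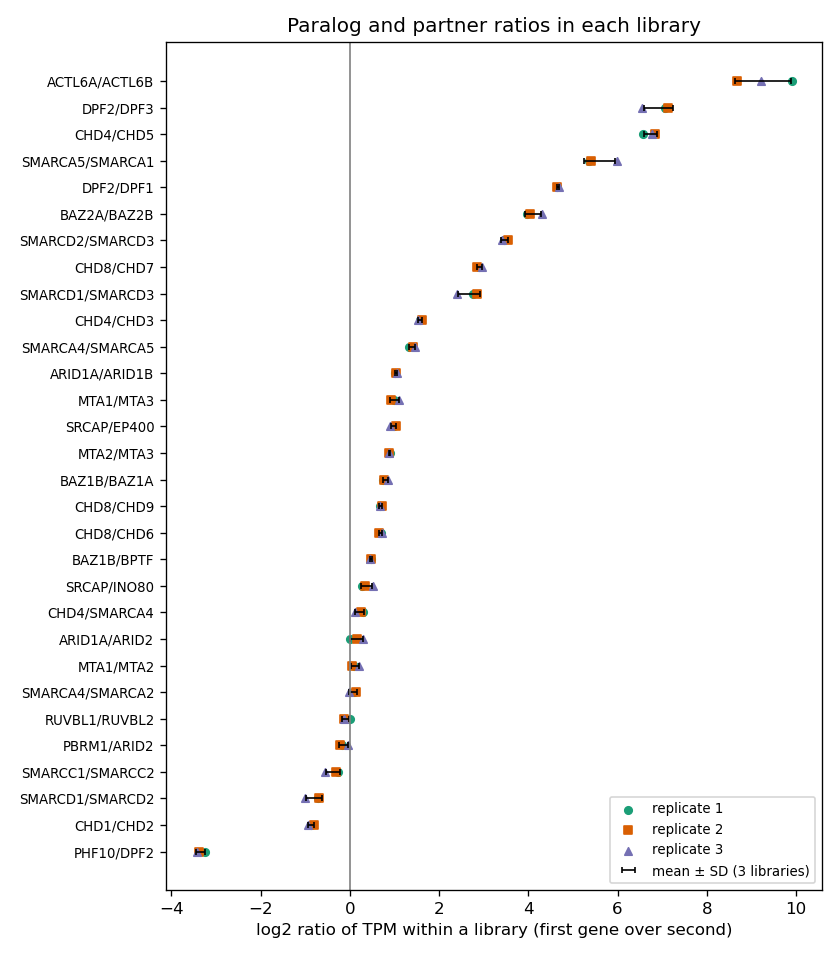
Log2 ratio of TPM within each library for 30 pairs, ordered by mean, with markers for the libraries and bars for mean ± SD (n = 3). The pairs at the top, from ACTL6A/ACTL6B at 9.26 down, lie far from 0 in all libraries, while SMARCA4/SMARCA2 (0.07 ± 0.09) and RUVBL1/RUVBL2 (−0.09 ± 0.08) lie at it.

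The spread of the remodeler genes between libraries was described by 2 measures. The coefficient of variation of their TPM had a median of 5.75% over 49 detected genes, beside 6.68% over 12786 detected protein-coding genes. On log2 CPM the range over libraries had a median of 0.13, beside 0.19 over all 14453 genes tested, and it was under 0.1 for 15 of the 49 (22.6% of all genes tested). It was over 0.3 for 6 (29.6% of all genes tested), namely HELLS (0.83), SMARCA1 (0.52), DPF3 (0.47), SMARCA2 (0.33), ARID2 (0.32) and BAZ2B (0.31). The median count of the 49 genes was 3122, beside 780.0 over detected entries, and the part of this depth in their spread was not tested.

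Counting error was tested next. Of the 49 genes tested, 30 varied beyond Poisson sampling (chi-square on counts scaled by the trimmed mean of M-values, TMM, Benjamini-Hochberg over 14453 genes), against a background of 41.6%. These 30 are 61.2% of the 49. The part of their higher counts in this share was not tested either. Of the 30, 18 were lowest and 8 were highest in replicate 3. Among all 49, 51.0% were lowest and 28.6% highest in that library, against 39.8% and 39.8% of the 14453 genes tested. Without replicate 3, 5 remained, CHD2, CHD9, RUVBL2, SMARCA4 and SMARCAD1, against a background of 8.04%. When each gene was instead compared with the variation usual at its level (edgeR trended dispersion), 0 of 49 were past the threshold, against a background of 1.21%. At an unadjusted p under 0.05 there was 1, HELLS, against a background of 5.91%, and with a common dispersion HELLS was past the threshold, against a background of 1.78%. None of the 52 partner and SNF2 genes tested was past it either, with 2 at an unadjusted p under 0.05.

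**Figure D4:**
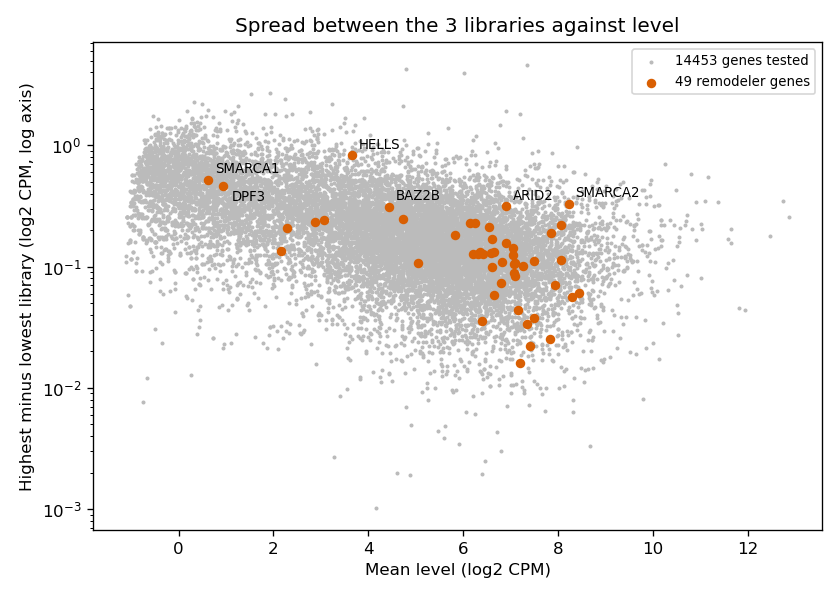
Range between the highest and lowest library (log2 CPM, log axis) against mean level (log2 CPM) for 14453 genes in grey and 49 remodeler genes in orange. HELLS, at a range of 0.83, stands highest of the remodeler genes, and most of the others lie at high mean level with ranges under 0.3.

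HELLS (LSH) is a SNF2-type remodeler that acts with CDCA7 to keep DNA methylated after replication. HELLS (chr10:94545767-94602099) had 421, 373 and 269 counts and 12.7, 11.2 and 6.85 TPM, a coefficient of variation of 29.7%. Replicate 3 was thus the low library, at 53.9% of replicate 1, with replicate 2 at 87.9%. The difference was beyond Poisson sampling (adjusted p = 2.42e-12) and, against the edgeR trended dispersion, had an unadjusted p of 0.00472 and an adjusted p of 0.204. CDCA7 was lowest in the same library, with 8.12, 7.24 and 3.64 TPM, or 44.8% of replicate 1 in replicate 3 (edgeR trended dispersion, adjusted p = 0.137).

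On TPM the 11 S-phase genes were all lowest in that library too, at 53.5 to 99.3% of replicate 1. On TMM-scaled CPM, DNMT1 was lowest in replicate 1 (96.5, 101 and 99.8 CPM) and the others in replicate 3. The summed level of the 11 genes was 581, 555 and 415 TPM. Past the trended dispersion test were 4 of them, MCM2 (28.1, 29.5 and 15.3 TPM), MCM5, RRM2 and UHRF1 (16.5, 15.6 and 8.84 TPM). Whether the share of cells in S phase moved with HELLS was not tested, and fewer cells of a state and less RNA per cell cannot be told apart in bulk RNA.

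**Figure D5:**
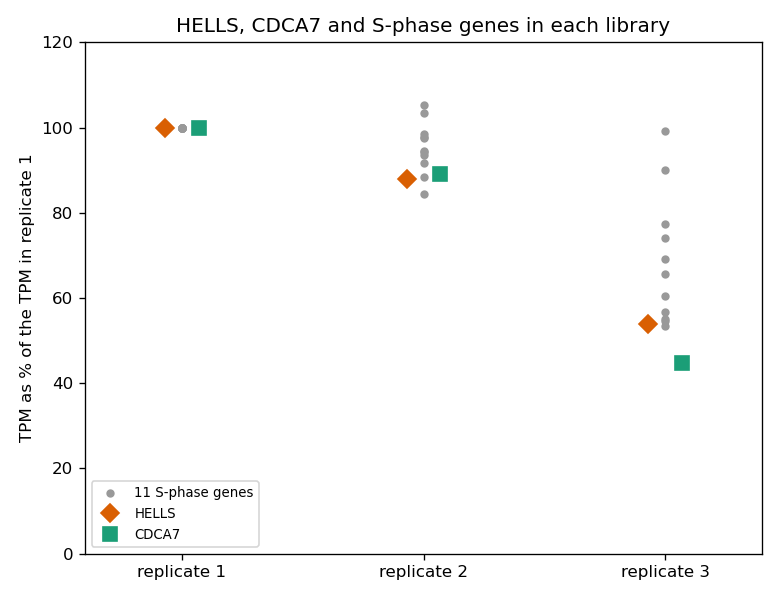
TPM of HELLS, CDCA7 and 11 S-phase genes in each library as a percentage of replicate 1. In replicate 3 HELLS lies at 53.9% and CDCA7 at 44.8%, and the S-phase genes spread from 53.5 to 99.3%.

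The uniqueness of the sequences bears on how far these levels can be trusted. Of the 50 genes, 22 shared no window of 50 bases with a transcript of another locus on the same strand, and 8 shared over 1% of their windows. The highest shares were 4.40% for PHF10, 4.27% for EP400, which has the pseudogene EP400P1, and 2.38% for BPTF, which has BPTFP1. None overlapped the exons of another gene on the same strand, and 5 overlapped one on the opposite strand, where it is not stated whether the counting used the strand.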

How the data were processed

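Strand-specific poly-A libraries of CAMA1 cells were sequenced, and the submitters' processing notes name TopHat, Subread, featureCounts and hg38, whose versions are not stated there. The deposited table gives estimated counts per gene (83.0, 83.3 and 82.9% of non-zero values were whole, within 1e-08) and a gene length, which equals the merged exons of all listed sequences, alternate ones included, in all 26485 entries. How the authors arrived at fractional counts is not stated.

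TPM was computed from these counts and lengths with pandas 2.3.3. Counts were rounded to whole numbers for edgeR 4.0.16 (filterByExpr, TMM, intercept-only design, prior count 2), and both chi-square tests were adjusted by Benjamini-Hochberg. Ratios were tested by exact sign flips. DESeq2 1.42.0 size factors, other filters, lengths and pseudocounts, and leaving out each library were alternatives. Both chi-square tests were also run on simulated counts, and the other steps were not.

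The 50 genes and all lists were chosen with earlier results of these data known. All 50 genes may be named. Of each list, the 3 highest, the lowest and any gene past the trended test may be named, and BRD7's neighbours, CDCA7 and the H3.3 genes are named besides. Protein sequences were not used here. With 10 counts as the detection minimum and libraries of 26473939 to 30745412 counts, precision is limited for genes near it.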

Additional observations from a re-analysis of the deposited data

How the results depend on the processing

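The number of detected genes was 47 to 50 under the alternatives run. The median of 44.2 TPM was 47.3 TPM when levels were scaled over protein-coding genes only, 45.8 TPM over detected genes only, and 43.8 to 44.9 TPM when a library was left out. Of 210 ratio values under alternatives 5 reversed, all on CPM without division by length: SMARCA4/SMARCA2 to −0.16, BAZ1B/BPTF to −0.42, MTA1/MTA3 to −0.24, MTA2/MTA3 to −0.25 and RUVBL1/RUVBL2 to 0.16. The other 25 ratios kept their sign in every alternative run. A pseudocount of 1 TPM moved 4 ratios by over 1.5 times: ACTL6A/ACTL6B to 7.12, DPF2/DPF3 to 5.90, CHD4/CHD5 to 5.93 and SMARCA5/SMARCA1 to 4.58. CPM without division by length moved 8 by that much. With exon length on the main chromosome, DAXX and SMARCB1 changed through their own length, and 11 other levels moved by more than their SD through the rescaled TPM total alone, such as CHD4 from 141 to 137 TPM. The count of genes beyond Poisson sampling, 30, was 5 to 26 when a library was left out, lowest without replicate 3, and 28 to 30 otherwise. Beyond the trended dispersion it was 0 in each alternative except a common dispersion, which gave 1, HELLS. No paired analysis was possible because there is 1 group of libraries. Depth limits ACTL6B, SMARCA1 and DPF3, which had 3 to 70 counts in a library.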
